A study of Rattus norvegicus with 20 samples.

Results

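The genes described here are those of the cytosolic ribosomal proteins, the proteins that build the large and the small subunit of the cell's translating ribosome. A probe belonged to the group if its name in the scanner files, without a trailing _predicted or _mapped, was Rpl or Rps followed by a digit, Rplp0, Rplp1, Rplp2 or Rpsa, and not an S6 kinase. This gave 69 genes with 102 probes, of 33089 genes tested in all, and the brightest probe stood for each gene. Of the 69 genes, 40 belong to the large and 29 to the small subunit, and all 69 passed the filter on dim probes.

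Neurons that the labels call sprouting and non-sprouting had been captured by laser from cortex after a stroke in 2-month-old rats, with about 300 cells of each type per animal. Cholera toxin B carrying Alexa 488 was injected next to the infarct as a first tracer, and the same toxin carrying Alexa 647 followed at that site 21 or 7 days later, in separate groups of 5 animals each, named day 21 and day 7 here. Neurons were captured 7 days after the second tracer, and their RNA went through 2 rounds of amplification. RNA of sprouting and of non-sprouting neurons of the same animal shared each 2-colour array, and a second array per animal had the dyes swapped, 20 arrays in all. All groups had a stroke and both tracers, and no neurons of animals without a stroke were analysed here. Of 12 general neuron markers, 9 were well above background on all 20 arrays. So were 10 of 14 astrocyte, 11 of 17 microglia, 11 of 19 oligodendrocyte and 9 of 15 endothelial and mural markers. Among neuron types, 12 of 15 GABAergic interneuron and 6 of 11 glutamatergic projection neuron markers were. Median spot signals ran from 98.7 to 344.7 units in Cy5 and from 133.9 to 281.4 units in Cy3. The 2 arrays of day 21 replicate 4 disagreed over all genes (r = -0.36 across genes, against 0.33 to 0.73 in the other animals), so values of that animal lie close to 0.

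Each ribosome needs its proteins in matched amounts, and the mRNAs of nearly all of them begin with a C in a run of pyrimidines, the 5′ terminal oligopyrimidine (TOP) tract. This tract places their translation under mTORC1, the growth-controlling kinase complex, whose downstream S6 kinases phosphorylate Rps6. In neurons, mRNAs of ribosomal proteins are among those found in growing axons, where ribosomes translate localised messages.

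The starts of the members' genes are shown because this tract would lie there. RefSeq's promoter table (GRCr8) held an entry for 56 of the 69 members. The lines below give 10 bases before the annotated start and 20 from the start on, 5′ to 3′ on the gene's strand. They are the 5 members with the highest mean ratio at day 7, with both entries of Rps27a, and those with an entry among the 5 lowest. Capitals mark 3 spellings of a pyrimidine run, chosen after the starts had been read. The first is CTTTC. Another of these spellings reads CTCTT. The last of the spellings reads CTTCC, and matches of different spellings may overlap. A marked stretch may lie before the annotated start, as in Rpl13a, and is then outside the annotated mRNA.
Rpl3, chr7:113507971-113508000, minus strand: gcctgctcgatctctatcggcggcgtgtgg
Rpl18, chr1:105325260-105325289, plus strand: acctggtctagcaggaggcgccatcatggt
Rps27a, chr14:107488922-107488951, minus strand: agggcggttccttcgacccggagactcggt
Rps27a, chr14:107488866-107488895, minus strand: atccgccatcgttggtgagtgtgtgctctg
Rpl17, chr18:70856266-70856295, plus strand: ttcgcgCTTCCTCTTCCtgttagcggccag
Rps9, chr1:74430418-74430447, minus strand: cggccacgtttCTCTTtgtcacgggcctga
Rps15, chr7:10068096-10068125, minus strand: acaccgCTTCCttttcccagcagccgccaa
Rpl13a, chr1:104748894-104748923, minus strand: tcCTTTCctaggcggctgccgaagatggcg
Rpl10, chrX:157205840-157205869, plus strand: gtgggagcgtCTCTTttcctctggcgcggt
Rpl21, chr12:13386134-13386163, minus strand: ttccgccggggcagccatCTTCCaggttgg

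Any of the 3 spellings stood on the gene's strand in this 30-base window in 39 of 56 members (69.6%), and in 3489 of all 27457 genes of the table (12.7%). These spellings were chosen after the starts had been read, so the higher share among members is no test of the tract. On the opposite strand they stood in 3 of 56 members (5.36%) and in 14.6% of all genes. CTTTC alone was present in 24 members (42.9%), against 3.88% of all genes, and the annotated start was itself a C in 53.6% of members, against 27.2% of all genes. The mean log2 ratio of sprouting over non-sprouting neurons had a median of 0.017 at day 21 and 0.11 at day 7 among the 39 members with a match. Among the 17 members without one it was 0.009 at day 21 and 0.13 at day 7, so members with and without the letters had nearly the same medians.

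No ribosomal protein gene differed between sprouting and non-sprouting neurons at an adjusted p under 0.05 (limma, Benjamini-Hochberg over 33089 genes) at day 21, at day 7, or in the mean of both days. The share of all genes that passed was 0% at day 21, 0.00302% at day 7 and 0% in the mean of both days. In that mean 52 members were higher and 17 lower (median 0.054), and 6 reached an unadjusted p under 0.05, which 11% of all genes did. The direction turned under median centring in place of loess (median -0.076, 12 higher and 57 lower). With scan day as a block it turned as well (-0.017, 27 higher and 42 lower), in a fit that averages over scan days, some without day 21 animals. The median was 0.015 without day 7 replicate 5 and 0.092 without day 7 replicate 1. The members' median lay at a different height in different animals. In day 7 replicates 1 and 5 nearly all members lay on one side of 0. The other animals ranged from 21 of 69 members higher (day 21 replicate 2) to 60 of 68 (day 7 replicate 4). All ratios below are log2 values, with sprouting neurons over non-sprouting ones within an animal.

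At day 21 the median over the members was 0.070 in replicate 1, -0.12 in replicate 2, 0.10 in replicate 3, 0.0091 in replicate 4 and -0.037 in replicate 5. Of the 69 members, 44, 21, 57, 41 and 24 were higher in sprouting neurons in these 5 animals. At day 7 the medians were -0.20 in replicate 1, 0.041 in replicate 2, 0.086 in replicate 3, 0.12 in replicate 4 and 0.39 in replicate 5. Of the members measured, 3, 42, 49, 60 and 67 were higher in these 5 animals. The members spread more than all genes in day 21 replicate 2 (SD over genes 0.314 against 0.239) and in day 7 replicate 2 (0.208 against 0.182). The median of all genes lay between -0.013 and 0.0093 in every animal. The mean of the animals' medians was 0.0050 ± 0.087 at day 21 and 0.087 ± 0.21 at day 7 (SD, n = 5 each), smaller than the spread between animals on both days.

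**Figure D1:**
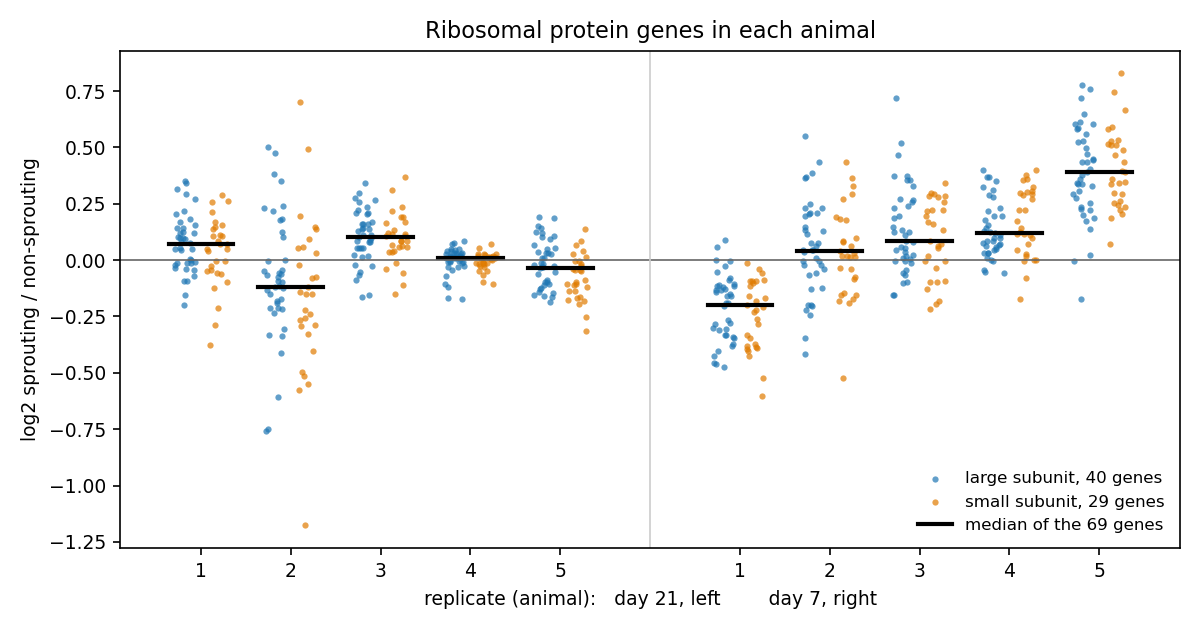
Log2 ratio of sprouting over non-sprouting neurons of each ribosomal protein gene (points) in each animal, large-subunit genes in blue and small-subunit genes in orange, day 21 on the left and day 7 on the right; black bars are medians of the 69 genes. The genes of both subunits sit below 0 in day 7 replicate 1 (median -0.20) and above 0 in day 7 replicate 5 (median 0.39), and they spread most in day 21 replicate 2.

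Genes of both subunits were high or low in the same animals. Large-subunit members had medians of 0.077, -0.095, 0.11, 0.013 and -0.020 in replicates 1 to 5 of day 21, where small-subunit members had 0.051, -0.15, 0.086, 0.0052 and -0.087. At day 7 the large-subunit medians were -0.17, 0.045, 0.099, 0.098 and 0.38, and the small-subunit medians -0.22, 0.020, 0.084, 0.14 and 0.39. The sign was the same for both subunits in all 10 animals.

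The median was also taken on single arrays of either dye orientation. In day 7 replicate 5 the members' median was 0.39 with sprouting neurons in Cy5 and 0.42 with sprouting neurons in Cy3. In day 7 replicate 1 it was -0.20 and -0.13 on the same 2 kinds of array. In day 21 replicate 2 it was -0.13 and -0.12. The 2 orientations gave the members' median the same sign in all 10 animals. Many arrays were close to an even split, with 42 and 36 of 69 members higher in day 21 replicate 4 and 36 and 40 in day 7 replicate 2. Only 25 of 69 members had the same sign on both arrays of day 21 replicate 4.

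**Figure D2:**
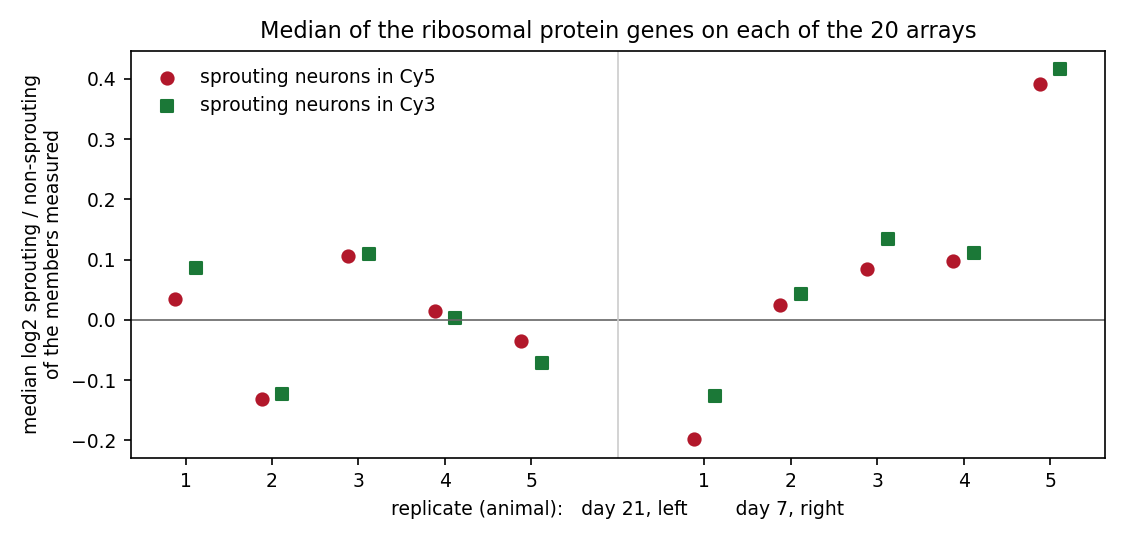
Median log2 ratio of sprouting over non-sprouting neurons over the ribosomal protein genes on each array, with sprouting neurons in Cy5 (red circles) or Cy3 (green squares), day 21 on the left and day 7 on the right. The 2 arrays of an animal lie on the same side of 0 in every animal, from -0.20 and -0.13 in day 7 replicate 1 to 0.39 and 0.42 in day 7 replicate 5.

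Single members were less alike across the dyes than their median. The mean ratio changed sign between orientations for 28 of 69 members at day 21 and for 26 at day 7. The widest gap was that of Rpl17, at 1.41 at day 7, with -0.44 where sprouting neurons were in Cy5 and 0.97 where they were in Cy3. Rplp1, an acidic protein of the stalk that recruits elongation factors, had -0.39 and 0.83, and Rps27a, made as a fusion with ubiquitin, had -0.30 and 0.85. The probes of Rpl17, Rplp1 and Rps27a were each saturated on 17 of 20 arrays, that of Rpl9 on 16 and that of Rps23 on 13. Saturation touched 23 members on at least 1 array and 6 on more than 10 arrays. The 46 members saturated on no array had a median of 0.0029 at day 21 and 0.096 at day 7, close to those of the 23 others (0.012 at day 21 and 0.10 at day 7). In single animals they could differ more. In day 7 replicate 1 the 23 had -0.37 and the 46 had -0.14, and in day 7 replicate 4 they had 0.30 and 0.098. In day 7 replicate 2 they were close, at 0.045 and 0.038. With saturated spots left out, 59 members kept a value, with medians of -0.00093 at day 21 and 0.11 at day 7. The mean of both orientations is used throughout.

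At day 21 the members were split, 38 higher and 31 lower, and their median was 0.0091, against -0.0013 for all genes, of which 49% were higher. None reached an unadjusted p under 0.05, which 5.8% of all genes did (limma), and the smallest adjusted p among members was 0.84. The processed scanner signals, centred on their median, gave 51 higher and 18 lower, and median centring in place of loess gave 20 higher and 49 lower. The median turned negative without replicate 1 (-0.0034) or replicate 3 (-0.016) and was 0.034 without replicate 2. With scan day as a block it was -0.12, with 5 higher and 64 lower. That value averages over all scan days, of which some held only animals of day 7, so it rests partly on those animals.

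The member with the smallest p at day 21 was Rps25, a small-subunit protein that several viral internal ribosome entry sites require. Its ratios were -0.045, -0.15, -0.11, -0.018 and -0.19 in replicates 1 to 5. All 5 animals lay below 0, with a mean of -0.10 ± 0.07 (SD, n = 5; limma adjusted p = 0.84). It was the only member lower in every animal of that day, a pattern that 4.13% of all genes showed, and no member was higher in every animal, as 4.33% of all genes were.

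Rps20, a protein of the small subunit's head, had the lowest mean at day 21. Its ratios were -0.37, -0.58, 0.23, -0.11 and -0.099 in replicates 1 to 5 of day 21. Replicate 3 alone was above 0, and the mean was -0.18 ± 0.31 (SD, n = 5; limma adjusted p = 0.86).

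Rps27, a zinc-finger protein of the small subunit, had the widest spread of all members at day 21. Its ratios were 0.16, -1.18, 0.37, 0.028 and -0.18, so that replicate 2 alone set its mean of -0.16 ± 0.60 (SD, n = 5; limma adjusted p = 0.95). Also among the lowest 5 were Rpl32 (-0.14 ± 0.29), where replicate 2 was again the lowest animal, and the zinc-finger protein Rps29 (-0.11 ± 0.15).

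The highest means at day 21 belonged to Rpl23, Rps4x, Rpl3, Rpl14 and Rpl38. Rpl23, which sits at the face between the subunits and can bind the p53 regulator Mdm2, had 0.080, 0.50, 0.16, 0.087 and -0.099 in replicates 1 to 5. Rps4x, the X-linked form of S4, had 0.11, 0.70, -0.15, -0.030 and 0.040. In Rpl23, Rps4x, Rpl3 and Rpl14 replicate 2 was the highest animal, the one in which most other members were low. The means were 0.15 ± 0.22 for Rpl23 and 0.13 ± 0.33 for Rps4x (SD, n = 5 each; limma adjusted p = 0.89 and 0.92).

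At day 7, 61 of 69 members had higher ratios in sprouting neurons and 8 lower ones, and their median was 0.10, against -0.0054 for all genes, of which 46.5% were higher. Under median centring in place of loess the split turned to 10 higher and 59 lower, with a median of -0.12. At an unadjusted p under 0.05 there were 7 members higher and 1 lower, or 11.6% of members against 9.48% of all genes, of which 4.51% were higher and 4.97% lower (limma). The smallest adjusted p among members was 0.43. Without replicate 5 the median was 0.019, with 40 members higher and 29 lower, and without replicate 1 it was 0.18, with 65 higher and 4 lower.

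Rpl3, which lies beside the site where the large subunit forms peptide bonds, had the highest mean and the smallest p of the members at day 7. Its ratios were 0.088, 0.39, 0.72, 0.098 and 0.40 in replicates 1 to 5. All 5 animals were above 0, also the animal in which nearly all other members were low. The mean was 0.34 ± 0.26 (SD, n = 5), a 1.26-fold difference that did not pass (limma adjusted p = 0.43). It was the only member higher in every animal of that day, which 3.57% of all genes were, and no member was lower in every animal, as 5.13% of all genes were.

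Next in order of p came Rps27a, Rps9, Rpl17 and Rpl18. Rps27a had -0.21, 0.44, 0.29, 0.40 and 0.44 in replicates 1 to 5, with replicate 1 apart from the other 4 (limma adjusted p = 0.46). Rps9, which binds ribosomal RNA early in the assembly of the small subunit, had -0.094, 0.37, 0.28, 0.070 and 0.51 (limma adjusted p = 0.47). Rpl17, which lines the tunnel through which the new protein leaves, had -0.31, 0.55, 0.26, 0.40 and 0.44 (limma adjusted p = 0.50). Rpl18, of the large subunit, had -0.15, 0.43, 0.35, -0.043 and 0.78 (limma adjusted p = 0.51). In each of these 4 genes replicate 1 was the lowest animal and below 0. The probes of Rps9, Rpl18 and Rpl3 were saturated on no array, unlike those of Rps27a and Rpl17, and their means had the same sign in both dye orientations at day 7.

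Rps15, a protein of the small subunit's head, went the other way on its brightest probe. The ratios of that probe at day 7 were -0.17, -0.52, -0.18, -0.081 and 0.072 in replicates 1 to 5, so that 4 of 5 animals were below 0. The mean was -0.18 ± 0.22 (SD, n = 5; limma adjusted p = 0.51), the lowest of the members. A second, dimmer Rps15 probe averaged 0.041 ± 0.045 at day 7 and was above 0 in 4 of 5 animals, so the direction of Rps15 depended on the probe. After it came the probe listed as Rpl10l (-0.066 ± 0.22), Rpl13a, known for silencing inflammatory messages after its release from the ribosome (-0.056 ± 0.28), and Rpl10, among the last proteins to join the large subunit (-0.040 ± 0.22). Rpl21 followed at -0.0079 ± 0.19. The spread between animals exceeded each of these 4 means. Rpl10l is the name of a retrogene copy of Rpl10 expressed in testis, but its probe stood at brightness percentile 93.7. Whether it bound Rpl10 transcripts was not tested.

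**Figure D3:**
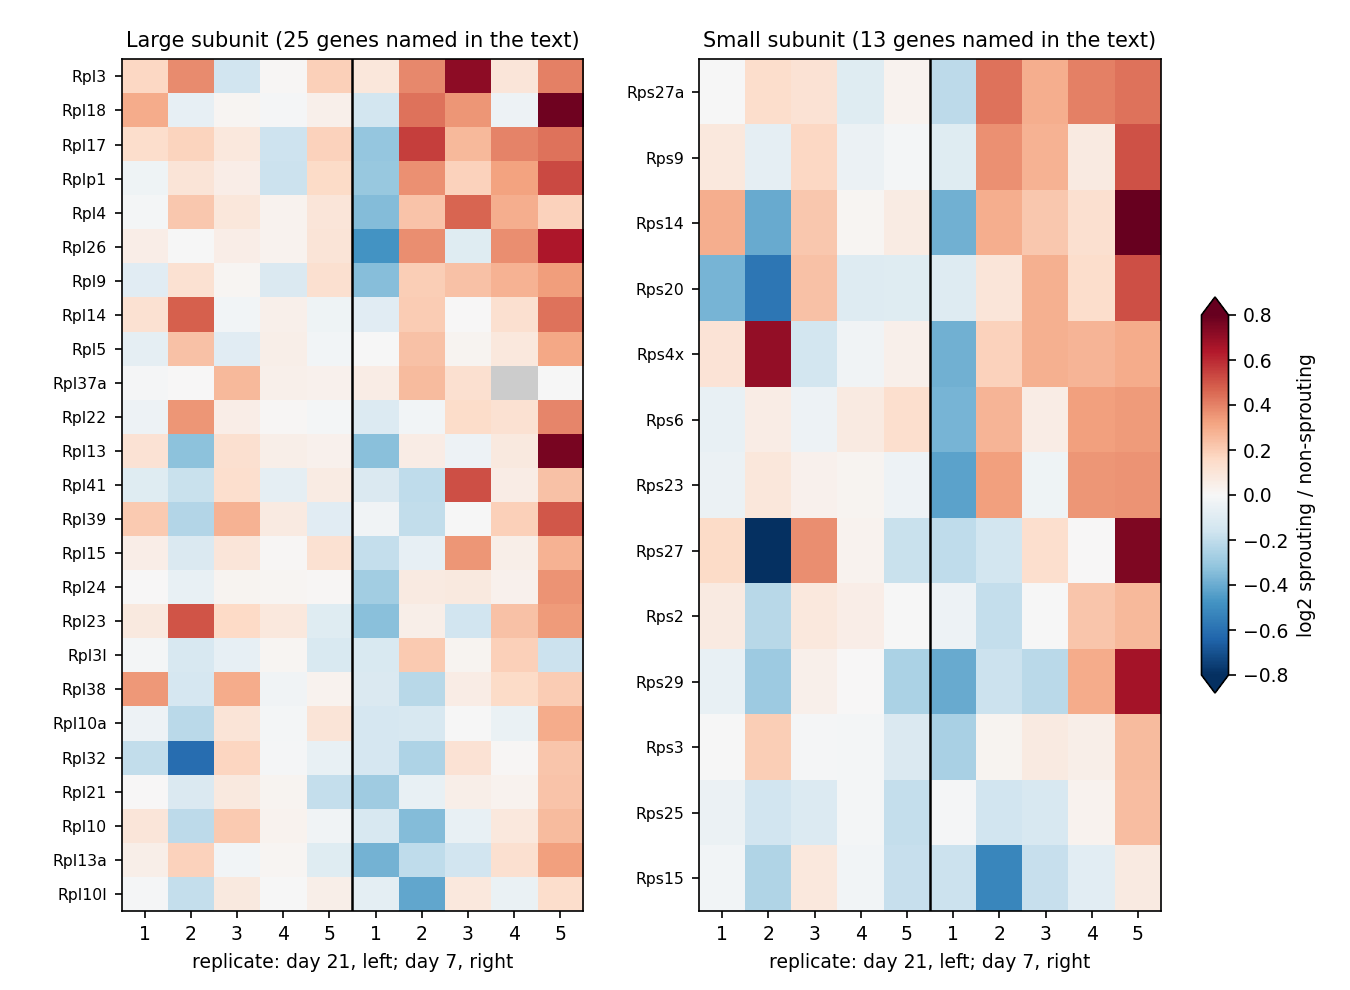
Log2 ratio of sprouting over non-sprouting neurons for the ribosomal protein genes named in the text (rows, ordered within a subunit by the day 7 mean) in each animal (columns, day 21 left of the line and day 7 right of it); red is higher in sprouting neurons, colours stop at 0.8 in either direction, and grey marks a value not measured on both arrays. The day 7 replicate 1 column is mostly blue and the day 7 replicate 5 column mostly red, and day 21 replicate 2 holds both the lowest value, -1.18 for Rps27, and high ones such as 0.70 for Rps4x.

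Other members with a known role were mostly low in day 7 replicate 1 as well. Rps6, the substrate of the S6 kinases, averaged 0.035 ± 0.081 at day 21 and 0.13 ± 0.30 at day 7 (SD, n = 5 each). Its probe was saturated on 9 arrays. The day 7 mean of Rps6 was -0.12 with sprouting neurons in Cy5 and 0.37 with them in Cy3. Rps14, a small-subunit protein lost in the human 5q- syndrome, had 0.29, -0.40, 0.22, 0.014 and 0.067 at day 21 and -0.38, 0.29, 0.22, 0.13 and 0.83 at day 7. Rplp1, whose probe was saturated on 17 arrays, averaged 0.020 ± 0.13 at day 21 and 0.22 ± 0.32 at day 7. Proteins of the exit tunnel other than Rpl17 had means of 0.084 (Rpl4) and 0.046 (Rpl39) at day 21, and of 0.17 and 0.093 at day 7. A list of members that can bind Mdm2 was chosen by hand and need not be complete. Of the 6 members on it, 5 were higher at day 21 and 6 at day 7, with medians of 0.028 and 0.12. Of all 69 members, 38 and 61 were higher on these days. Other members that may bind Mdm2 were not added to the 6. Among the 6, Rpl5, which forms a particle with 5S RNA, averaged 0.021 ± 0.13 at day 21 and 0.13 ± 0.14 at day 7 on its brightest probe. Its other probes averaged 0.12 ± 0.38 and 0.053 ± 0.32 at day 21, and 0.37 ± 0.25 and 0.17 ± 0.10 at day 7, where both were above 0 in all 5 animals. Rpl26, which also binds p53 mRNA, averaged 0.045 ± 0.039 at day 21 and 0.16 ± 0.45 at day 7 on its brightest probe. That probe was saturated on 10 arrays. Its day 7 mean was -0.17 with sprouting neurons in Cy5 and 0.50 with them in Cy3. The other Rpl26 probe averaged -0.058 ± 0.18 at day 21 and 0.20 ± 0.43 at day 7. The sign of Rpl26 at day 21 thus depended on the probe. Another list chosen by hand, possibly incomplete, held 11 members mutated in human Diamond-Blackfan anaemia, an inherited failure of red cell production. Their medians were -0.015 at day 21 and 0.084 at day 7. These medians sit beside 0.0091 and 0.10 for all members, and no gene of either group passed the test.

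The remaining proteins of known role had means between -0.063 and 0.12 on both days. Rpl38, which in mouse embryos favours the translation of Hox messages, averaged 0.10 ± 0.21 at day 21 and 0.016 ± 0.18 at day 7. Rpl22, which has a paralogue of its own, averaged 0.072 ± 0.16 and 0.11 ± 0.19, Rps23, a protein of the decoding centre, 0.012 ± 0.059 and 0.12 ± 0.35, and Rpl41, the smallest ribosomal protein, -0.028 ± 0.13 and 0.10 ± 0.29. Rps2 and Rps3, which line the channel where mRNA enters, averaged -0.0024 ± 0.13 and 0.0091 ± 0.11 at day 21, and 0.049 ± 0.19 and 0.026 ± 0.19 at day 7. Rpl10a had -0.013 ± 0.13 and -0.0042 ± 0.18, and Rpl24 had -0.0022 ± 0.034 and 0.053 ± 0.23. Rpl3l, the heart and skeletal muscle copy of Rpl3, was the dimmest member (brightness percentile 27.4), with -0.063 ± 0.063 at day 21 and 0.025 ± 0.18 at day 7.

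Of 24 members with several probes, only Rpl15 had probes whose mean ratios differed by over 0.3. Its brightest probe averaged 0.084 ± 0.23 at day 7 and its other probe -0.34 ± 0.24, so the direction of Rpl15, like that of Rps15, depended on the probe. At day 21 they averaged 0.033 ± 0.095 and -0.0059 ± 0.17. Probe sequences were not used here, and whether a probe also bound transcripts of the many processed copies of ribosomal protein genes was not tested.

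Between the days, the ratio was lower at day 21 than at day 7 for 61 of 69 members and higher for 8, with a median difference of -0.098 against 0.0044 for all genes, of which 52.5% were higher. No member passed (limma adjusted p of 0.94 or more), and 0% of all genes did. At an unadjusted p under 0.05 there was 1 member, a lower one, against 4.05% of all genes (1.72% lower). No member's animals were separated between the days. Among all genes 0.505% had every day 21 animal above those of day 7, and 0.299% had every one below. Under median centring 56 members were higher and 13 lower (median 0.091), and with the processed signals 22 were higher and 47 lower (median -0.044). Without day 7 replicate 5 the median was -0.027, with 30 higher and 39 lower, and without day 7 replicate 1 it was -0.18, with 5 higher and 64 lower.

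The 1 member was Rps20, at -0.37 ± 0.15 (SE; limma adjusted p = 0.94). Its ratios at day 21, given above, and those at day 7 (-0.10, 0.099, 0.29, 0.14 and 0.51 in replicates 1 to 5) overlapped. The differences of Rps27 (-0.27), Rps27a (-0.24), Rpl18 (-0.22) and Rpl3 (-0.22) were the next lowest, and Rps9 (-0.20) was among those with the smallest p. Those of Rpl23 (0.12), Rps15 (0.099), Rpl38 (0.088), Rpl13a (0.081) and Rpl10 (0.057) were the highest.

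Scan days, as the file headers give them, were shared by animals of both days in 3 cases. Within these the median difference of the members was -0.078 (2 animals of day 21 and 1 of day 7), -0.35 (2 and 1) and -0.19 (1 and 1). Day 7 replicates 1 and 2 were scanned on days of their own, and day 7 replicate 3, whose arrays were scanned on different days, was placed by its array with sprouting neurons in Cy5. With scan day as a block the median was -0.24, with 1 member higher and 68 lower (limma adjusted p of 0.82 or more).

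Levels within a cell type were also compared between the days, across arrays. In sprouting neurons 20 members had higher and 49 lower levels at day 21 than at day 7, and the median difference was -0.084 beside -0.046 for all genes. In non-sprouting neurons 40 had higher and 29 lower levels, and the median difference was 0.027 beside -0.045 for all genes. The animal medians of the member level ran in sprouting neurons from 13.7 to 13.9 at day 21 and from 13.8 to 13.9 at day 7. In non-sprouting neurons they ran from 13.7 to 14.0 at day 21 and from 13.5 to 14.0 at day 7, where replicate 5 was lowest and replicate 1 highest. No member passed in either cell type (limma adjusted p of 0.56 or more), and 0% of all genes did. At an unadjusted p under 0.05 there were 3 members in sprouting and 1 in non-sprouting neurons, against 8.83% and 8.97% of all genes. In pools of captured cells, fewer cells of a type and less RNA per cell cannot be told apart.

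Members were among the brightest genes on the arrays: 64 of 69 lay in the brightest 10%, and their median stood at percentile 98.8 of brightness. Loess fits each array's ratio along brightness, and it held the other genes of the brightest 10% between -0.017 and 0.023 in every animal. Under median centring those other bright genes had medians of -0.011, -0.34, 0.34, -0.040 and -0.10 in replicates 1 to 5 of day 21 and of 0.18, -0.33, -0.35, -0.26 and -0.19 at day 7. The members then had 0.070, -0.49, 0.48, -0.029 and -0.16 at day 21 and -0.048, -0.33, -0.29, -0.16 and 0.18 at day 7. The day 7 direction of the members as a group flipped with the scaling, from 61 to 10 members higher. The members' median minus that of the other bright genes kept its sign in 9 of 10 animals, and at day 7 it was -0.20, 0.050, 0.10, 0.12 and 0.39 under loess and -0.23, -0.0046, 0.058, 0.11 and 0.37 under median centring. Loess fitted without the member probes gave a median of 0.11 at day 7, with 62 members higher.

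**Figure D4:**
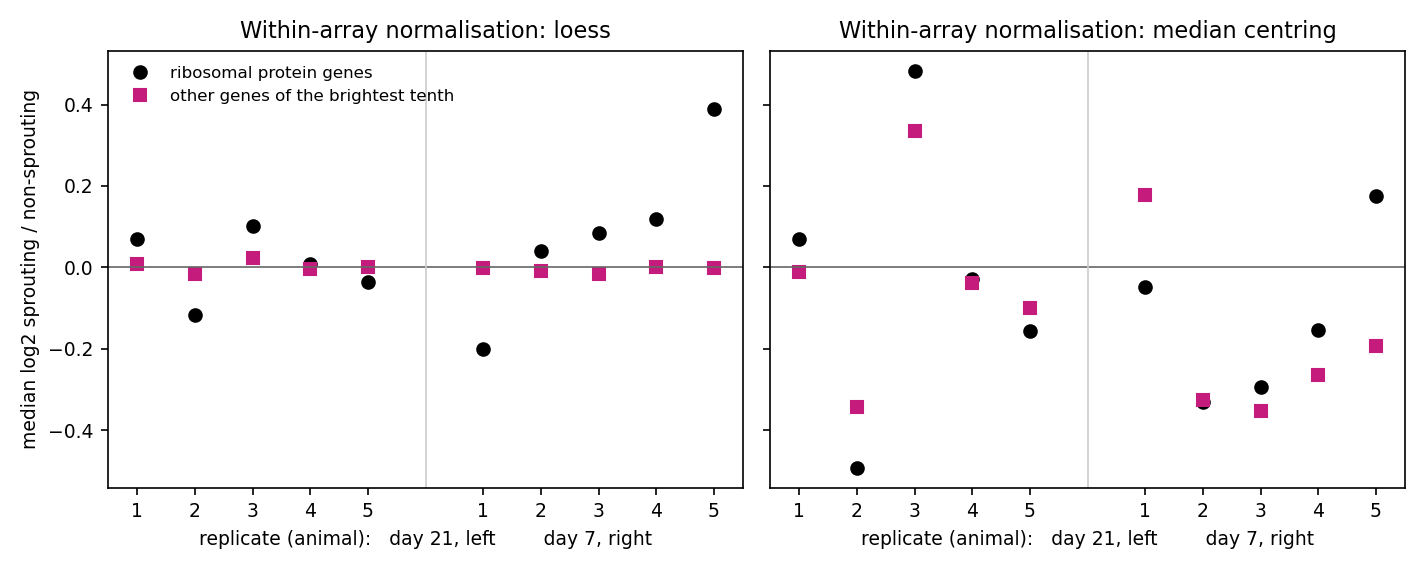
Median log2 ratio of sprouting over non-sprouting neurons in each animal for the ribosomal protein genes (black circles) and for the other genes of the brightest 10% (purple squares), after loess (left panel) and after median centring (right panel), with day 21 left of day 7 in each. Loess places the other bright genes near 0, median centring leaves them between -0.35 and 0.34, and the members' distance from them changes between the panels, from 0.078 to 0.15 in day 21 replicate 3 and from 0.050 to -0.0046 in day 7 replicate 2.

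Genes outside the name pattern served as a comparison. Current names identified 7 further subunits listed under older names or accessions, among them Rplp0 (listed as Arbp), Rpsa (listed as Lamr1), Rplp2, Rpl8, Rpl11 and Rps19. Their medians were 0.070, 0.13, 0.024, -0.014 and -0.052 in replicates 1 to 5 of day 21 and -0.12, -0.020, 0.11, 0.013 and 0.40 at day 7. Their sign matched that of the members in 7 of 10 animals and was opposite in day 21 replicates 2 and 4 and day 7 replicate 2. At day 7 replicate 1 was lowest and replicate 5 highest. The 316 other probes described as similar to a cytosolic ribosomal protein had 0.054, -0.083, 0.11, -0.0077 and -0.037 at day 21 and -0.14, -0.020, 0.051, 0.080 and 0.31 at day 7. Their sign matched that of the members in 8 of 10 animals. Components without such a name included Rack1 (listed as Gnb2l1), a scaffold on the small subunit, with means of 0.080 at day 21 and 0.14 at day 7, and Fau, a fusion protein that gives S30 (-0.064 and -0.041).

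Other TOP messages were mixed. Of 16, 6 were higher and 10 lower at day 21 (median -0.0082), and 11 higher and 5 lower at day 7 (median 0.032), none past the test. Their medians in the animals of day 7 were -0.14, 0.026, 0.090, 0.048 and 0.21 in replicates 1 to 5. Tpt1, a growth-related protein and the TOP message with the smallest p at day 7, averaged 0.33, Nap1l1, a histone chaperone, 0.27, and Eef2, which moves the ribosome along the mRNA, 0.21 (limma adjusted p = 0.48, 0.50 and 0.52). Eif4b, which assists the helicase of initiation, had -0.12.

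Lists of genes that act with the cytosolic ribosome or in mitochondria were also compared. Of 33 initiation and elongation factors, 11 were higher and 22 lower at day 21 (median -0.019), and 18 higher and 15 lower at day 7 (median 0.0087). Eif4e, the cap-binding factor, had -0.20 at day 7 (limma adjusted p = 0.42), and Eif5b, which joins the subunits, had 0.25 at day 21 and -0.18 at day 7. Of 42 ribosome biogenesis genes, 24 were higher at day 21 and 19 at day 7 (medians 0.017 and -0.013), and the smallest p at day 7 belonged to Nolc1, a nucleolar chaperone (-0.15), and Sbds, which frees the new large subunit for joining (0.22). Of 32 genes of mTORC1 and S6 kinase signalling, 17 were higher at day 21 and 20 at day 7 (medians 0.0039 and 0.016). Of 67 mitochondrial ribosomal proteins, which serve translation inside mitochondria, 46 were higher at day 21 and 45 at day 7 (medians 0.030 and 0.021). No gene of these 4 lists passed the test at day 21 or at day 7.

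Markers of oligodendrocytes, the myelinating glia, varied more between animals than the ribosomal protein genes. Their medians over 19 markers were 0.46, -0.30, -0.26, 0.0098 and -0.12 in replicates 1 to 5 of day 21 and -0.34, 0.20, -0.16, 0.75 and 0.92 at day 7. They had the sign of the members' median in 8 of 10 animals, and the exceptions were replicate 3 of each day. At day 21, 4 of 19 markers were higher in sprouting neurons (median -0.019), and at day 7, 17 of 19 (median 0.29), none past the test. Their summed level ran in sprouting neurons from 14.5 to 16.2 at day 21 and from 15.5 to 16.9 at day 7 (log2). In non-sprouting neurons it ran from 14.9 to 15.9 at day 21 and from 15.7 to 16.7 at day 7. Of the 19 markers, 11 were well above background in both channels of all 20 arrays and each of the others on at least 0.85 of them. Astrocyte, microglia, endothelial and neuron markers had medians of 0.47, 0.058, 0.032 and -0.067 in day 7 replicate 5, and of -0.029, -0.17, -0.0099 and 0.12 in day 7 replicate 1. The part of other cells in the members' ratio was not tested.

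**Figure D5:**
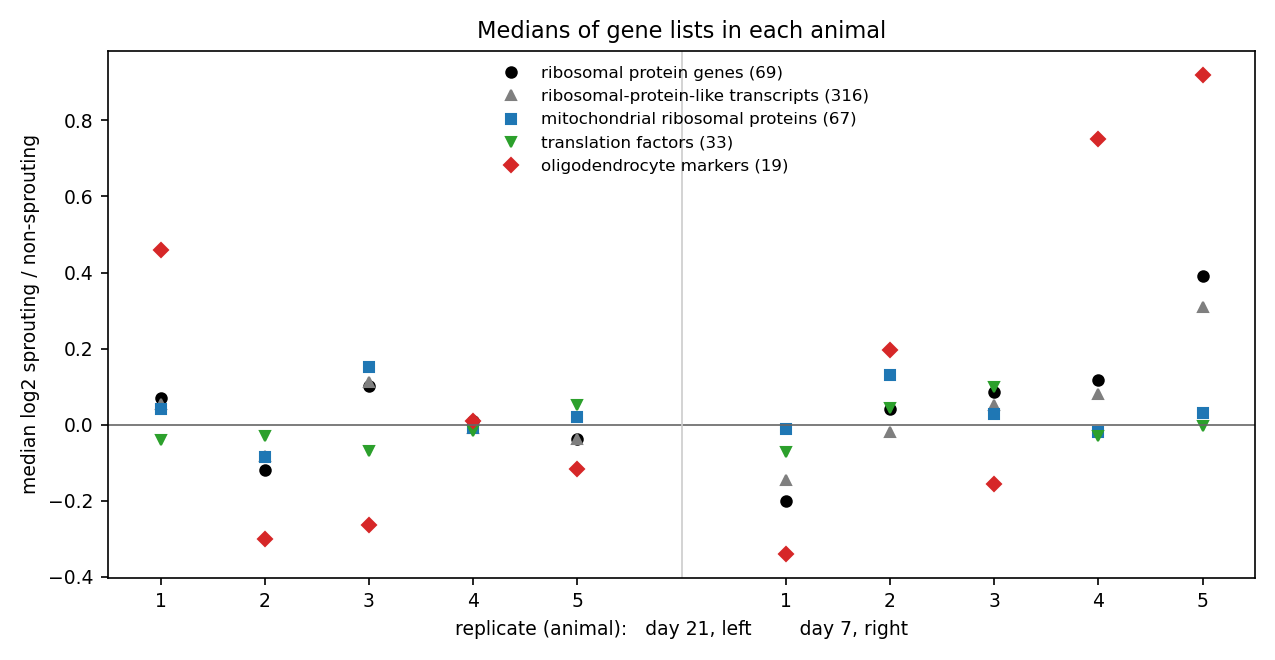
Median log2 ratio of sprouting over non-sprouting neurons in each animal for the ribosomal protein genes, for other probes described as similar to ribosomal proteins, for mitochondrial ribosomal proteins, for translation factors and for oligodendrocyte markers (number of genes in brackets), day 21 on the left and day 7 on the right. The probes similar to ribosomal proteins lie close to the members in each animal, the oligodendrocyte markers range from -0.34 to 0.92, and the other lists stay between -0.084 and 0.15.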

How the data were processed

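The data are 20 rat arrays of 43628 spots in 2 colours from 10 animals. Per the file headers, the scanner files came from Agilent Feature Extraction 9.1.3.1 and hold intensity, as mean signal and local background of each channel. The authors also deposited a table of log2 ratios, whose method is not given in the sources used here; it served as an alternative, and 20 further columns of it were not used. Here the intensity was corrected with normexp (offset 50), normalised by loess within arrays (limma 3.58.1, R 4.3.3), turned to sprouting over non-sprouting, and averaged over spots and over both arrays of an animal. A probe was kept where 0.5 or more of the arrays of any cell type and day put it well above background and at least 3 animals per day had a value. Ratios were fitted with lmFit and eBayes, with a mean per day over all 33089 genes, two-sided, with Benjamini-Hochberg adjustment over all genes. Rpl37a was measured in 4 animals of day 7. Levels within a cell type followed Aquantile normalisation. The number of animals limits the precision. The code was tested on simulated data.

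Members and lists were chosen with earlier results of these data known. The text names members with the 5 highest, the 5 lowest and the 5 smallest p per comparison, a set with known roles, paralogues, and members whose probes differ by over 0.3. From other lists it names up to 4 members with the smallest p. Array names were updated with the GRCr8 gene table, by accession for 10658 probes, by symbol for 4647 and by synonym for 3885, while 21822 kept the name in the file. There were 13 members with no match in RefSeq's promoter table, among them Rpl10l, Rpl15, Rpl32, Rps20, Rps25 and Rps29. Some genes that the naming rule selects are not reported here, but they count in every total and median. Same-numbered animals of the 2 days were separate, and their deviations correlated at -0.20 to 0.0017, so replicate numbers do not pair animals.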

Additional observations from a re-analysis of the deposited data

Results flagged for a closer look

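In groups of 5 animals, 10 of 137 tested sets of a member's ratios had 1 animal far from the other 4 (7.3%). The rule flags about 1 in 20 of independent sets. Members share the same animals, so the sets are not independent and the shares cannot be compared. Replicate 2 of day 21 was that animal in 5 sets. Among these, Rpl13 had -0.33 there (others 0.031 to 0.13), Rps2 had -0.22 (others -0.002 to 0.086), Rpl24 had -0.06 (others 0.002 to 0.022) and Rpl22 had 0.35 (others -0.038 to 0.052). Replicate 1 of day 7 was that animal in 3 sets: Rps4x had -0.38 there (others 0.18 to 0.30), Rpl9 had -0.34 (others 0.20 to 0.34) and Rps27a had -0.21 (others 0.29 to 0.44). Rpl17 had -0.17 in day 21 replicate 4 (others 0.084 to 0.19), and Rpl37a had 0.26 in day 21 replicate 3 (others -0.009 to 0.04). The probes of Rpl9, Rps27a and Rpl17 were saturated on 16, 17 and 17 of 20 arrays. The 2 arrays of day 21 replicate 4 disagreed over all genes (r = -0.36 across genes).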

How the results depend on the processing

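The fit across all genes called no member under most alternatives. The exceptions were the fit of all 20 arrays, in which animals were random blocks and dye was a covariate (1 member called at day 7, Rpl3, and 1 in the mean of both days) and the use of only the arrays with sprouting neurons in Cy3, chosen after seeing the data and without balance of the dyes (4 members called at day 7 and 6 in the mean of both days). How many of all genes these fits called is not given here, so their counts of members have no background beside them. Median centring in place of loess gave a members' median of -0.12 at day 7. Scan day as a block gave -0.12 at day 21, but this fit averages over scan days, some of which held no day 21 animal. The mean of both days turned to -0.076 under median centring and to -0.017 with the scan day block. Without normalisation between arrays the members' level at day 21 minus day 7 had a median of -0.42 in sprouting and -0.34 in non-sprouting neurons, beside -0.14 for all genes in each. For these changes the cause was not tested. Over all other alternatives, the 6 medians stayed within the spread between animals of the values reported. Leaving out 1 animal at a time moved the median to between 0.019 and 0.18 at day 7 and to between -0.016 and 0.034 at day 21. It moved the mean of both days, 0.054, to 0.092 without day 7 replicate 1, to 0.015 without day 7 replicate 5 and to 0.035 without day 21 replicate 3. With replicate number as a block, a pairing that the animals do not have, the medians were 0.10 at day 7 and -0.098 for the difference between days, and no member was called. The level in non-sprouting neurons had a median of -0.031 without day 7 replicate 5. All but 2 members, Rpl3l and Rpl37a, were well above background in both channels of all 20 arrays, and saturation limits 6 members on more than 10 arrays.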
